A study of Mus musculus with 10 samples.

Results

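The comparison described here set the last step of a medium cycle against its start: mouse embryonic stem cells that had gone through 2i, serum and 2i again (second 2i) against cells labelled as grown in serum only (serum). It used 4 of the 10 RNA-seq libraries of the series, chosen by their culture label alone, with 2 libraries in each group. All cultures contained leukaemia inhibitory factor (LIF), grew on gelatin-coated plates and were split about every 48 h, and all cells carried a reporter of Wnt/beta-catenin pathway activity; the labels do not say whether the line was a single clone. The second 2i cultures had spent 13 passages in 2i with LIF, 6 passages in serum with LIF and a final 4 to 5 passages in 2i with LIF, where 2i stands for a pair of inhibitors, one of GSK3 at 3 µM and one of the ERK pathway at 1 µM. The serum cultures are labelled only as grown in serum with LIF, with no passage number, so medium and total time in culture cannot be told apart in this comparison. Further groups of 2 libraries each, used for context, were cells in 2i for 5 to 6 passages (first 2i), cells in 2i for more than 13 passages (long 2i), and cells returned to serum for 6 passages after more than 13 in 2i (serum return). Whether the sequenced serum return cells are those that went on to second 2i is not stated.

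In serum with LIF, embryonic stem cells self-renew under LIF-driven Stat3 and serum-driven BMP signals, while their own Fgf4 keeps the ERK cascade active. The 2i inhibitors act on both sides of this balance. Blocking GSK3 stabilises beta-catenin, which acts on target genes through Tcf/Lef proteins, and blocking the kinase above ERK lowers the feedback genes that ERK itself induces. Cells in 2i are known for even expression of naive pluripotency factors, low expression of lineage genes and low DNA methylation.

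Gene counts totalled 18412529 to 21162844 in the 4 libraries, and 16809070 to 27766338 over all 10. The 2 libraries of each group differed from one another by more than counting noise, with a chi-square per degree of freedom of 3.47 in second 2i and 4.79 in serum, so no pair was treated as 1 library. Among the other groups the 2 serum return libraries stood apart, at 25.3, or 3.60 without the 50 genes that contributed most. Besides values named as serum return, they enter the shared estimate of spread, the scaling, the filter on low counts and the principal components. The labels do not describe the 2 libraries of a group as separate cultures, so the p-values below rest on a spread that may be technical. On the first principal component, which held 65.8% of the variance, second 2i lay at 43.9 and 43.3 and serum at -81.6 and -84.2. The 8 embryonic stem cell markers summed to 5866 and 6015 CPM, the read count scaled to library size, in second 2i, against 5343 and 5488 CPM in serum, and none of the 8 was at 0 in either group. Sums over markers of other cell types are given with those genes below.

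Differential expression was broad and even in direction. Of 14220 genes tested, 9446 (66.4%) passed an adjusted p under 0.05 between second 2i and serum; 4777 (33.6%) were higher in second 2i and 4669 (32.8%) were lower. At least 2-fold differences accounted for 3282 genes (23.1%), 1514 higher (10.6%) and 1768 lower (12.4%). The median log2 fold change over all tested genes was 0.01. The scaling between libraries (TMM) assumes that most genes do not differ, so this median and the even split are partly set by it. A shift in total RNA per cell would not show in these values. In bulk RNA, fewer cells of a kind and less RNA per cell cannot be told apart for any gene below. Any count of members of a gene list given below is to be read against these shares, since most tested genes passed.

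**Figure D1:**
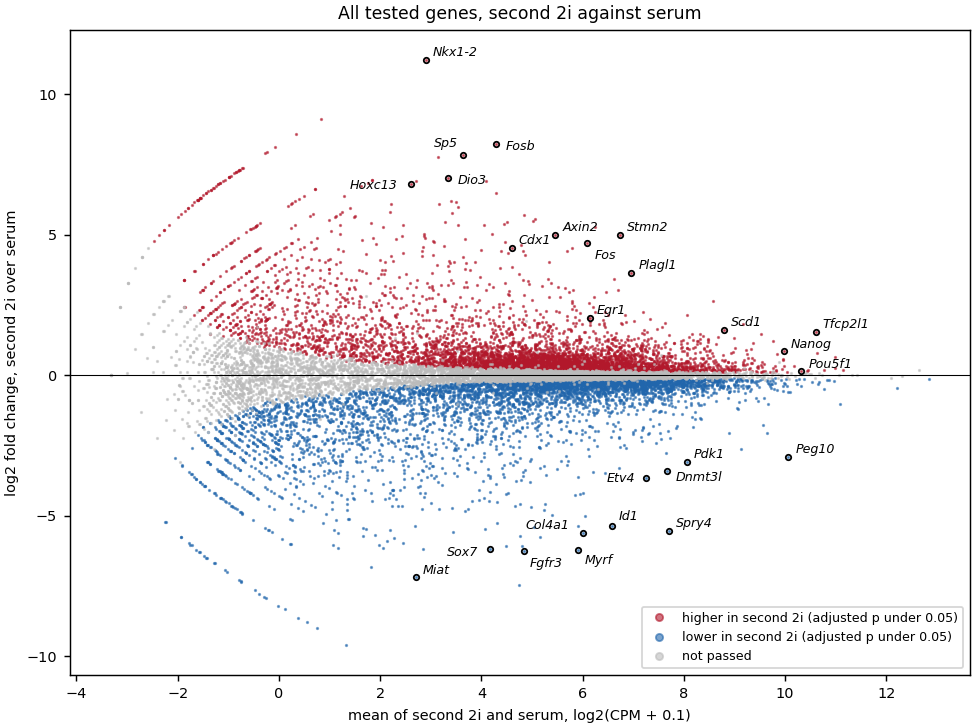
Log2 fold change of every tested gene, second 2i over serum (vertical), against the mean level of the 2 groups as log2(CPM + 0.1) (horizontal); red points were higher and blue points lower in second 2i at an adjusted p under 0.05, and circles mark named genes. The cloud is balanced about 0 (4777 higher, 4669 lower), a balance partly set by the scaling between libraries. Among the labelled genes Nkx1-2, Fosb and Sp5 lie highest and Miat, Fgfr3 and Myrf lowest. The curved streaks at low level are genes with few or no counts in 1 group.

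Leaving aside genes whose higher group averaged under 5 CPM, the 10 largest increases included Nkx1-2, a homeobox gene of the posterior epiblast, Fosb, a subunit of the transcription factor AP-1, and Sp5, a zinc finger gene that responds directly to beta-catenin. Nkx1-2 had 14.2 and 15.2 CPM in second 2i and no count in either serum library, which makes it at least 197-fold higher against a floor of 3 counts over the group. Dio3, a thyroid hormone deiodinase encoded in an imprinted cluster, had 18.6 and 21.4 CPM in second 2i, against 0.143 and 0.156 CPM in serum. Anxa1, a calcium-dependent phospholipid-binding protein, had 13.2 and 12.4 CPM in second 2i, against 0.143 and 0.0521 CPM in serum. All of these were near the detection floor in serum and readily counted in both second 2i libraries. Hoxc13 is described with the Hox genes below. The other 4, Onecut2, Sp100, Cnga4 and Bst1, had 221 to 257 counts in second 2i and 2 counts each in serum. Counting error alone put the ratio for Onecut2 between 37.8 and 1146 (95% exact interval around 138).

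Under the same limits, the 10 largest decreases were led by Miat, a long noncoding RNA, with 3 counts in second 2i and 508 in serum. The ratio of serum to second 2i was 158 (95% exact interval 53.6 to 767, counting error only). Fgfr3, an FGF receptor, had 0.926 and 0.527 CPM in second 2i, against 52.2 and 60.3 CPM in serum, and Myrf, a membrane-bound transcription factor known from myelinating cells, had 1.42 and 1.74 CPM in second 2i, against 109.5 and 126 CPM in serum. Robo4, a guidance receptor of endothelial cells, had 0.599 and 1.00 CPM in second 2i, against 51.6 and 58.6 CPM in serum. Nos3, the endothelial nitric oxide synthase, had 0.817 and 0.475 CPM in second 2i, against 40.3 and 47.8 CPM in serum. Sox7, a transcription factor of primitive endoderm and endothelium, had 0.654 and 0.316 CPM in second 2i, against 34.0 and 36.7 CPM in serum. The fitted decreases were 77.0-fold for Fgfr3, 74.3-fold for Myrf, 68.0-fold for Robo4, 67.8-fold for Nos3 and 72.3-fold for Sox7. Genes picked by fold change, here and below, had to show 1 direction in all pairs of second 2i and serum libraries. Their lack of overlap between the groups is therefore set by the choice and is not a result. Calca, the calcitonin gene, Wdr86 and Vwa1 were 72.6-, 70.7- and 66.7-fold lower, and Dync1i1, a dynein subunit, had 2 counts in second 2i against 269 in serum (ratio of serum to second 2i 125, interval 34.3 to 1039).

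Wnt target genes, which inhibition of GSK3 is known to raise, were mostly higher in second 2i. Axin2, which encodes a scaffold of the beta-catenin destruction complex and is itself a target of the pathway, had 85.3 and 85.3 CPM in second 2i, against 2.34 and 3.02 CPM in serum, a 31.9-fold difference (log2 fold change 4.99 ± 0.10 (SE), adjusted p = 3.10e-19). Sp5 had 21.3 and 27.6 CPM in second 2i, against 0.0957 and 0.104 CPM in serum, with 915 counts against 4 (log2 fold change 7.85 ± 0.50 (SE), adjusted p = 3.53e-07). The 2 groups did not overlap for either gene, as the choice by fold change required. Because Sp5 was nearly silent in serum and responds directly to beta-catenin, its promoter is shown, from 250 bases before to 50 bases after the start (RefSeq, GRCm38.p6, chr2:70474673-70474972, plus strand), with its single match to the Tcf/Lef motif CTTTGAT in capitals, 104 bases before the start.
Sp5: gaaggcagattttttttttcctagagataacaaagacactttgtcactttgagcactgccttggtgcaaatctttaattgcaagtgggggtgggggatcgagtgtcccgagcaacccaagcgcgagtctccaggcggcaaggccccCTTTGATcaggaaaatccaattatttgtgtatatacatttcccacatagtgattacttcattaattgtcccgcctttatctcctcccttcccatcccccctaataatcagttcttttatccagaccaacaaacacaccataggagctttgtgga
This motif, read on both strands, was present in 3.73% of 32851 promoter windows of that length. The RefSeq table held a window for 162 of the 234 genes picked by the naming rule.

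Of 21 tested Wnt feedback and target genes, 13 were higher (33.6% of all genes) and 5 lower (32.8%), with a median log2 fold change of 1.16 against 0.01 over all genes; the lower members numbered 3 without second 2i library 1 or serum library 2. Notum, a secreted enzyme that inactivates Wnt ligands, had 92.1 and 102 CPM in second 2i, against 32.7 and 34.0 CPM in serum. Tcf7, a DNA-binding partner of beta-catenin, had 70.6 and 65.2 CPM in second 2i, against 30.2 and 32.0 CPM in serum, and Tnfrsf19, a receptor of the TNF family, had 13.5 and 13.6 CPM in second 2i, against 2.77 and 2.61 CPM in serum. All 3 rose, by 2.91-, 2.18- and 5.02-fold, with both libraries of second 2i above both of serum (Notum and Tcf7 were chosen after their values were seen). Other targets were lower: Myc, a growth regulator, had 11.4 and 11.02 CPM in second 2i, against 90.2 and 97.4 CPM in serum, and Ccnd1, the gene of cyclin D1, had 95.8 and 98.2 CPM in second 2i, against 199.7 and 199 CPM in serum. Both fell, by 8.37- and 2.05-fold. Myc and Ccnd1 are also ERK targets and stand in that list too. Lef1, a further partner of beta-catenin, had 0.599 and 0.686 CPM in second 2i, against 1.10 and 1.41 CPM in serum, and did not pass (adjusted p = 0.0511); it passed under 4 of the alternatives tried, at adjusted p of 0.0339 to 0.0486.

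The components of the pathway were mixed, with 14 of 33 tested members higher and 12 lower and a median of 0.10. Wls, which carries Wnt ligands to the cell surface, had 27.2 and 26.9 CPM in second 2i, against 2.25 and 3.70 CPM in serum, and the secreted Wnt antagonist Sfrp1 had 582 and 594 CPM in second 2i, against 222 and 237 CPM in serum. Fzd10, a Wnt receptor, was 2.19-fold higher. Among the lower members, the ligand Wnt6 had 1.63 and 2.64 CPM in second 2i, against 8.99 and 11.8 CPM in serum, the receptor Fzd7 had 94.7 and 100.2 CPM in second 2i, against 162 and 169 CPM in serum, and Tcf7l2 was 1.51-fold lower. Receptor genes thus stood on both sides.

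Posterior and primitive streak genes were partly higher: 8 of 17 tested were higher (33.6% of all genes), 3 lower (32.8%) and 6 did not pass (median 0.62). Most of the higher members, among them Sp5, Cdx1, Cdx2 and T, also stand in the Wnt target list and were counted there. Cdx1, a homeobox regulator of posterior identity and a Wnt target, had 41.2 and 51.3 CPM in second 2i, against 1.77 and 2.24 CPM in serum (log2 fold change 4.53 ± 0.18 (SE), adjusted p = 4.46e-13). This level in second 2i exceeded those of first 2i (5.71 and 6.28 CPM) and long 2i (10.1 and 13.8 CPM), by 7.72- and 3.85-fold (adjusted p = 2.15e-10 and 3.05e-09). Cdx2, its paralog, had 47 counts in second 2i and 2 in serum (ratio 25.3, interval 6.61 to 215), and T (Brachyury), the mesoderm factor of the streak, had 77 counts against 4. The streak genes Eomes and Mixl1 did not pass, Eomes with 14.4 and 16.1 CPM in second 2i, against 15.1 and 14.4 CPM in serum (these 4 were chosen after their values were seen). Bmp4, also in this list, was 4.24-fold lower.

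Hox genes, which pattern the body axis, were higher where they could be tested. Of 38 Hox genes listed, 21 stayed below the filter on low counts. Of the 17 tested, 15 were higher (33.6% of all genes) and none was lower (32.8%). The others, Hoxc5 and Hoxc6 (chosen as the exceptions), had 4 and 2 counts in second 2i and none in serum. The median was 3.42, or 2.86 with the 7 genes that had no serum count set to their bound or, for Hoxc6, to 0. A gene passes that filter through its high group, and most levels were low. Hoxc13 had 11.8 and 12.1 CPM in second 2i, against 0.0957 and 0.104 CPM in serum, and Hoxb9 had 6.97 and 7.80 CPM in second 2i, against 1.29 and 0.729 CPM in serum. Among those without any serum count, Hoxc12 (chosen after its values were seen) had 56 counts in second 2i, at least 20.1-fold higher.

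Feedback and target genes of the ERK pathway were mostly lower in second 2i. Of 29 tested members of the ERK list 17 were lower (32.8% of all genes) and 8 higher (33.6%), with a median of -0.88. Spry4, a feedback inhibitor of receptor tyrosine kinase signalling, had 9.10 and 8.38 CPM in second 2i, against 406 and 408 CPM in serum, a 46.6-fold difference (log2 fold change -5.54 ± 0.07 (SE), adjusted p = 5.12e-22). Etv4, an ETS transcription factor downstream of FGF, had 22.4 and 22.3 CPM in second 2i, against 277 and 288 CPM in serum (12.6-fold), and Dusp6, a phosphatase that inactivates ERK, had 19.9 and 18.7 CPM in second 2i, against 192 and 190.4 CPM in serum (9.90-fold). Both second 2i libraries lay below both serum libraries in all 3, as the choice of genes required. Hbegf, an EGF receptor ligand, was 5.77-fold lower and Spred1, another inhibitor, 3.58-fold lower (both chosen after their values were seen). Other feedback genes did not fall: Spred3 had 5.99 and 7.65 CPM in second 2i, against 4.35 and 5.21 CPM in serum, and Dusp1 had 53.9 and 55.5 CPM in second 2i, against 39.7 and 45.8 CPM in serum, and both were higher (adjusted p = 0.0125 for Spred3 and 0.00111 for Dusp1), while Dusp7 did not pass (adjusted p = 0.527; the last 3 were likewise chosen after their values were seen).

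Several ERK genes were higher in second 2i than in first 2i. Spry4 had 9.10 and 8.38 CPM in second 2i and 1.92 and 1.51 CPM in first 2i, a 5.07-fold higher level in second 2i (adjusted p = 1.24e-10). Etv4 had 22.4 and 22.3 CPM in second 2i and 4.49 and 4.72 CPM in first 2i (4.85-fold, adjusted p = 5.58e-13). Dusp6, with 19.2 and 15.7 CPM in first 2i, did not pass (adjusted p = 0.212). In the direct comparison of second with first 2i, 18 of the 29 ERK list members were higher (18.1% of all genes) and 2 lower (19.6%). The lean was the other way against long 2i, with 7 higher (28.1% of all genes) and 13 lower (28.4%). Etv5, a paralog of Etv4, had 402 and 418 CPM in second 2i, against 357 and 355 CPM in serum (1.15-fold higher, chosen after its values were seen).

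**Figure D2:**
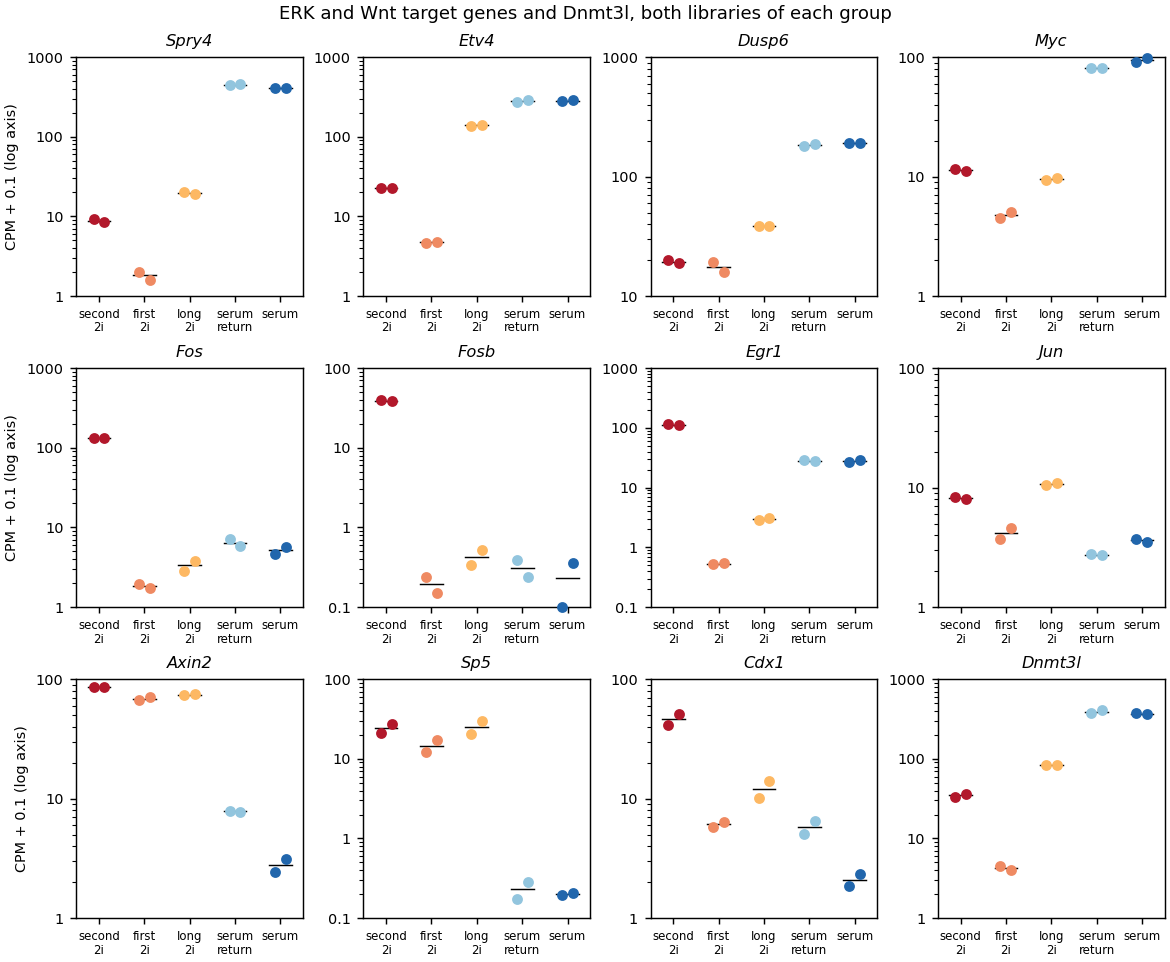
CPM + 0.1 on a log axis in both libraries (points) of second 2i, first 2i, long 2i, serum return and serum, with the mean of each group as a line. Spry4, Etv4, Dusp6, Myc and Dnmt3l were low in second 2i and high in serum, Axin2, Sp5 and Cdx1 the reverse, and Fos, Fosb and Egr1 were highest in second 2i among the 5 groups (Fos 132 and 131 CPM in second 2i against 4.496 and 5.58 CPM in serum).

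Fos, Fosb and Egr1, immediate-early genes that are normally switched on within minutes by ERK and other kinases, went the other way. Fos had 132 and 131 CPM in second 2i, against 4.496 and 5.58 CPM in serum, a 26.1-fold increase (log2 fold change 4.71 ± 0.11 (SE), adjusted p = 2.44e-18). Fosb had 39.5 and 38.4 CPM in second 2i, against 0 and 0.261 CPM in serum, with 1454 counts against 5 (298-fold). Egr1 had 116 and 109.8 CPM in second 2i, against 26.6 and 28.5 CPM in serum (4.09-fold, adjusted p = 1.49e-15). For all 3 both second 2i libraries lay close together, and above both serum libraries as the choice of genes required. Levels in the earlier 2i cultures were far lower. Fos had 1.82 and 1.66 CPM in first 2i and 2.78 and 3.69 CPM in long 2i, Fosb had 0.140 and 0.0487 CPM in first 2i and 0.236 and 0.422 CPM in long 2i, and Egr1 had 0.421 and 0.438 CPM in first 2i and 2.78 and 2.96 CPM in long 2i. Second 2i differed from first 2i by a log2 fold change of 6.23 for Fos (adjusted p = 3.12e-18), 8.58 for Fosb (adjusted p = 2.54e-14) and 8.02 for Egr1 (adjusted p = 7.81e-20).

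Other genes of that class lay on both sides. Jun, a partner of the Fos proteins in AP-1, had 8.17 and 7.86 CPM in second 2i, against 3.59 and 3.44 CPM in serum (2.28-fold higher). Junb, another partner, had 16.2 and 19.9 CPM in second 2i, against 30.0 and 36.3 CPM in serum, and was 1.83-fold lower; Ier2 had 294 and 340.1 CPM in second 2i, against 365 and 401 CPM in serum, and did not pass (adjusted p = 0.106; Junb and Ier2 were chosen after their values were seen).

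The promoters of Fos and Fosb are shown because both genes rose strongly and together. Both windows run from 250 bases before to 50 bases after the start (RefSeq, GRCm38.p6; Fos chr12:85473640-85473939, plus strand; Fosb chr7:19309996-19310295, minus strand). Capitals mark the cAMP response element core TGACGT in Fos, 66 bases before the start, and the Egr motif GCGNGGGCG in Fosb, 50 bases before it.
Fos: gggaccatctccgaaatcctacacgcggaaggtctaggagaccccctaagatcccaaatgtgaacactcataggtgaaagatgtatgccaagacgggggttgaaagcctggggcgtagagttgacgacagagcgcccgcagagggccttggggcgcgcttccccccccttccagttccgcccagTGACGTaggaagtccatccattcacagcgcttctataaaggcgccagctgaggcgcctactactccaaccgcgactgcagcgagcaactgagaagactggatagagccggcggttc
Fosb: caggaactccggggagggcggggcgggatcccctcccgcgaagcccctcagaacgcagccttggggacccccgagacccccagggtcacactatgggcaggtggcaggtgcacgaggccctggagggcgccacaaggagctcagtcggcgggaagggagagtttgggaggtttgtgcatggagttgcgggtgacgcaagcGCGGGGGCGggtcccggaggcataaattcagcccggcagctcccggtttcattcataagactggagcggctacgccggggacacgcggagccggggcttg
On either strand TGACGT was found in 7.51% of the 32851 windows and GCGNGGGCG in 5.55%. Neither promoter held CTTTGAT or a CArG box, the binding motif of serum response factor, which 1.63% of windows held. The known serum response element of Fos lies further upstream than the window reaches. The motifs searched do not overlap one another in these promoters.

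Of 15 tested FGF ligands and receptors 8 were lower (32.8% of all genes) and 4 higher (33.6%), with a median of -0.80. Besides Fgfr3, the ligand Fgf17 had 0.926 and 0.633 CPM in second 2i, against 9.80 and 10.5 CPM in serum. Fgf4, the main FGF of embryonic stem cells, had 201 and 209 CPM in second 2i, against 163 and 161 CPM in serum, and was 1.26-fold higher, and Fgf10 was 4.56-fold higher.

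Of the core pluripotency genes Pou5f1 differed little between the groups, Nanog was higher in second 2i and Sox2 lower. Several naive genes were higher in second 2i. Pou5f1, which encodes Oct4, had 1311 and 1369.8 CPM in second 2i, against 1199.9 and 1227 CPM in serum, and was 1.10-fold higher (adjusted p = 0.0122), a call lost without second 2i library 2 (adjusted p = 0.112) or without serum library 1 (adjusted p = 0.0718). Nanog had 1295 and 1289.8 CPM in second 2i, against 729.6 and 709.9 CPM in serum (1.796-fold higher), and Sox2 had 618 and 612 CPM in second 2i, against 816 and 814 CPM in serum (1.33-fold lower). The naive factor Tfcp2l1, a target of Stat3, had 2336 and 2284 CPM in second 2i, against 771 and 824 CPM in serum (2.90-fold higher, log2 fold change 1.53 ± 0.05 (SE), adjusted p = 1.18e-16). Prdm14, which represses the de novo methyltransferases, was 2.27-fold higher, Nr5a2 1.99-fold and Esrrb 1.26-fold higher. Against these, Gbx2 had 16.5 and 16.7 CPM in second 2i, against 117 and 127 CPM in serum, Utf1 had 58.9 and 71.1 CPM in second 2i, against 288 and 335 CPM in serum, and Tdgf1, the Nodal co-receptor Cripto, was 1.88-fold lower. Over the list 14 of 29 were higher and 11 lower (median 0.14). Zfp42 (Rex1) had 844 and 875 CPM in second 2i, against 924 and 938 CPM in serum, a difference whose call at adjusted p = 0.0367 was lost on leaving out any 1 of the 4 libraries.

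LIF and Stat3 signalling genes were lower in 11 of 18 (32.8% of all genes) and higher in 4 (33.6%), with a median of -0.28. Socs3, the feedback inhibitor that Stat3 induces, had 70.5 and 80.8 CPM in second 2i, against 131 and 149 CPM in serum. The kinase gene Pim3 was 4.73-fold and the LIF receptor gene Lifr 2.38-fold lower. Higher members were Tfcp2l1, Il6ra (2.59-fold), Klf4 (1.22-fold) and Jak2, whose call was lost under the DESeq2 Wald test (adjusted p = 0.0519) and without second 2i library 1 (adjusted p = 0.229) or serum library 1 (adjusted p = 0.129).

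Genes of the formative and primed epiblast, the stages after naive pluripotency, were mostly lower. Of 25 tested, 18 were lower (32.8% of all genes) and 5 higher (33.6%), with a median of -1.23. Tcf15, a transcription factor that marks cells leaving the naive state, had 2.45 and 3.22 CPM in second 2i, against 92.3 and 142 CPM in serum; Sox11 and Sox4 were 13.3- and 9.43-fold lower. The higher members included Zic2, with 18.5 and 19.5 CPM in second 2i, against 1.29 and 1.62 CPM in serum, Fst, an inhibitor of activin, with 7.68 and 7.96 CPM in second 2i, against 0.574 and 0.365 CPM in serum, and Nodal itself (2.37-fold).

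The de novo DNA methylation genes were low in second 2i and the maintenance genes were not. Dnmt3l, the catalytically inactive cofactor of the de novo enzymes, had 33.5 and 36.6 CPM in second 2i, against 371 and 369 CPM in serum, a 10.6-fold difference (log2 fold change -3.40 ± 0.06 (SE), adjusted p = 6.57e-20). Dnmt3a had 16.4 and 17.7 CPM in second 2i, against 49.7 and 51.9 CPM in serum (2.98-fold lower) and Dnmt3b had 58.6 and 58.0 CPM in second 2i, against 148 and 145 CPM in serum (2.52-fold lower). The libraries of second 2i lay below those of serum for all 3 genes, as the naming rule required. Dnmt1, the maintenance enzyme, had 505 and 516 CPM in second 2i, against 428 and 449.8 CPM in serum, and Uhrf1, which recruits it to replicating DNA, had 721 and 739.9 CPM in second 2i, against 544 and 548 CPM in serum; they were 1.16- and 1.34-fold higher. Zfp57, a zinc finger protein that protects imprints, was 1.68-fold higher. The hydroxylase gene Tet1 was 1.75-fold lower and Tet2 had 284 and 300.1 CPM in second 2i, against 272 and 297 CPM in serum, and did not pass (adjusted p = 0.538; both chosen after their values were seen). Over the whole list 10 of 23 were higher and 9 lower (median 0.04).

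Against first 2i, Dnmt3l and Dnmt3b were higher in second 2i and Dnmt3a was lower. Dnmt3l had 33.5 and 36.6 CPM in second 2i and 4.44 and 3.94 CPM in first 2i (8.34-fold higher in second 2i, adjusted p = 4.65e-15), while long 2i had 83.0 and 84.2 CPM. Dnmt3b was 2.03-fold higher than in first 2i and Dnmt3a 1.38-fold lower. Methylation itself was not measured.

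Polycomb group genes moved in both directions, 11 of 25 higher (33.6% of all genes) and 8 lower (32.8%), with a median of -0.01. Bmi1, a subunit of Polycomb repressive complex 1, had 41.9 and 38.2 CPM in second 2i, against 4.26 and 3.96 CPM in serum. Phf19, a chromatin-reading partner of complex 2, had 2.83 and 2.58 CPM in second 2i, against 32.3 and 32.0 CPM in serum, and Jarid2, another partner, had 321 and 326 CPM in second 2i, against 722 and 738 CPM in serum. Ezh2, the methyltransferase of complex 2, had 267 and 258 CPM in second 2i, against 269 and 259 CPM in serum, and did not pass (adjusted p = 0.914, chosen after its values were seen).

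Of the 4 Id genes, which BMP signals induce, Id1 and Id2 were lower in second 2i. Id1, an inhibitor of basic helix-loop-helix factors, had 4.03 and 5.01 CPM in second 2i, against 183 and 189 CPM in serum (41.0-fold lower, log2 fold change -5.36 ± 0.09 (SE), adjusted p = 4.28e-20), and Id2 had 1.20 and 1.21 CPM in second 2i, against 27.9 and 25.8 CPM in serum. Id3 had 36.0 and 43.1 CPM in second 2i, against 41.2 and 47.9 CPM in serum, and Id4 had 12.3 and 11.97 CPM in second 2i, against 10.7 and 11.9 CPM in serum, and neither passed (adjusted p = 0.178 for Id3 and 0.451 for Id4, both chosen after their values were seen). Bmp4 had 48.3 and 48.5 CPM in second 2i, against 199.8 and 211 CPM in serum, and Dusp9, a BMP-induced phosphatase that restrains ERK, had 47.6 and 53.8 CPM in second 2i, against 229 and 242 CPM in serum. Id1, Id2, Bmp4 and Dusp9 were the largest decreases of the BMP list that met the naming rule. Over the whole list 7 of 17 were lower and 4 higher, with a median of 0.00. In the Nodal and TGF-beta list 7 of 19 were lower and 6 higher (median -0.12). Lefty1, a Nodal antagonist and target, had 63.5 and 69.0 CPM in second 2i, against 147 and 164 CPM in serum, and Lefty2 had 529 and 562 CPM in second 2i, against 402 and 394 CPM in serum, so the paralogs moved apart, 2.35-fold lower and 1.37-fold higher. Both were far lower in long 2i, Lefty1 at 0.887 and 0.581 CPM and Lefty2 at 10.99 and 10.03 CPM. Smad3, a transducer of these signals, was 2.51-fold higher, and Inhbb, an activin subunit, had 13.5 and 14.9 CPM in second 2i, against 153 and 168 CPM in serum.

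Imprinted genes lay on both sides. Of 22 tested genes listed as maternally expressed 13 were lower and 4 higher (median -0.48). Of 25 listed as paternally expressed 10 were lower and 7 higher (median -0.09). Whether each listed gene is imprinted in these cells was not tested. Plagl1, a zinc finger gene of the paternal set, had 246 and 214 CPM in second 2i, against 18.4 and 18.2 CPM in serum (12.6-fold higher), while Peg10, derived from a retrotransposon, had 264 and 239 CPM in second 2i, against 1911 and 1854 CPM in serum (7.496-fold lower). Phlda2, of the maternal set, had 11 counts in second 2i against 499 in serum, Cdkn1c, a cell-cycle inhibitor, was 10.4-fold lower, and H19 had 6 counts against 189. Meg3, the noncoding RNA of the cluster that also holds Dio3, had 100.4 and 104 CPM in second 2i, against 128 and 140.3 CPM in serum, and Rian, of the same cluster, 86.6 and 77.8 CPM in second 2i, against 153 and 143 CPM in serum; these were 1.32- and 1.803-fold lower while Dio3 was 128-fold higher. Igf2 was low in both groups, with 8 counts against 48. The counts do not separate the parental alleles, and the strand setting of the counting is not given in the sources used here, so overlapping and antisense transcripts of these loci are uncertain.

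Germline genes, several of them known to be held silent by promoter methylation, split evenly, 13 higher and 13 lower of 32 (median 0.52). Dazl, an RNA-binding protein of germ cells, had 29.4 and 27.3 CPM in second 2i, against 7.46 and 6.67 CPM in serum, Fkbp6, an immunophilin of meiotic cells, had 13.0 and 12.8 CPM in second 2i, against 1.72 and 2.24 CPM in serum, and Brdt, a testis bromodomain protein, had 14.4 and 14.7 CPM in second 2i, against 4.11 and 3.33 CPM in serum. On the other side Ddx4, the Vasa helicase, had 5.45 and 4.90 CPM in second 2i, against 15.7 and 12.3 CPM in serum, and Stra8, which opens meiosis, was 3.71-fold lower.

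Genes of the 2-cell-like state, a rare condition in which stem cells express transcripts of the early cleavage embryo, were higher at low levels. Of 20 listed, 9 stayed below the filter. Of the 11 tested, 10 were higher (33.6% of all genes) and none was lower (32.8%), with Eif1a not passing. The median was 3.76, or 3.44 with Zscan4e, which had no serum count, at its bound. As with the Hox genes, most passed the filter through a group in which they were high. Zscan4d had 4.09 and 3.32 CPM in second 2i, against 0.0957 and 0.0521 CPM in serum, with 138 counts against 3, a ratio of 49.4 (95% exact interval 16.6 to 243, counting error only). Usp17la had 66 counts against 5, and Pramel6 had 3.65 and 4.06 CPM in second 2i, against 0.239 and 0.469 CPM in serum. In the direct comparison with first 2i, 10 of the 11 were higher in second 2i (18.1% of all genes), and with long 2i 8 were higher (28.1%) and Pramel6 and Pramel7 lower (28.4%). Zscan4d had 0.327 and 0.195 CPM in first 2i, none in long 2i and 2.76 and 1.86 CPM in serum return. The genes named here were chosen after their values were seen. The Zscan4 and Usp17l genes belong to families of near-identical copies, so how reads were split among copies is uncertain.

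Basement membrane genes lay on both sides. Of the collagen IV chains, Col4a1 had 2.89 and 2.32 CPM in second 2i, against 118 and 136 CPM in serum (48.6-fold lower) and Col4a2 had 2.56 and 2.16 CPM in second 2i, against 41.0 and 46.2 CPM in serum (18.4-fold lower), while Col4a5 was higher, with 42 counts in second 2i against 13 in serum (adjusted p = 0.00223, chosen after its values were seen). Col18a1 and Hspg2, which encodes perlecan, were 4.15- and 2.92-fold lower. Nid1, the linker protein nidogen, had 733 and 716 CPM in second 2i, against 282 and 297 CPM in serum, Sparc, a collagen-binding protein, had 351 and 352 CPM in second 2i, against 188 and 174 CPM in serum, and Fn1, fibronectin, had 2439 and 2492 CPM in second 2i, against 1472 and 1660.2 CPM in serum, 2.50-, 1.94- and 1.57-fold higher. The list as a whole had 10 of 24 higher and 10 lower (median -0.03).

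Col4a1 and Col4a2 are transcribed away from each other, and their promoter windows are shown because they share 78 bases, in capitals, and both genes fell (RefSeq, GRCm38.p6; Col4a1 chr8:11312777-11313076, minus strand; Col4a2 chr8:11312555-11312854, plus strand; each line reads 5′ to 3′ on its own strand).
Col4a1: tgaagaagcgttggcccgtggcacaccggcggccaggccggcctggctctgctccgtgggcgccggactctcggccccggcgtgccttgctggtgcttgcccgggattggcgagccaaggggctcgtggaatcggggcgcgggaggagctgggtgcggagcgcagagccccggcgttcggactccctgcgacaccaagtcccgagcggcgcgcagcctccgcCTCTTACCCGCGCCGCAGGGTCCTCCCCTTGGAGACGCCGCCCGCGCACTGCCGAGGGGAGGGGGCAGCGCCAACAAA
Col4a2: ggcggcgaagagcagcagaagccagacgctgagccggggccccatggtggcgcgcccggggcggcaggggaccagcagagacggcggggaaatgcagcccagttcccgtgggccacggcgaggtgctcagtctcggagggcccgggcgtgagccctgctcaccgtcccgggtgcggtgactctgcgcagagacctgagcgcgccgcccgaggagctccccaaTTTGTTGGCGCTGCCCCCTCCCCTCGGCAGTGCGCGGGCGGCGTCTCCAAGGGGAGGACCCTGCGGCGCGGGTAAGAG
The shared stretch is chr8:11312777-11312854. In serum return the pair stood at 159 and 175 CPM for Col4a1 and 58.5 and 59.6 CPM for Col4a2, in first 2i at 0.842 and 0.828 CPM and 1.54 and 0.633 CPM and in long 2i at 3.13 and 3.80 CPM and 2.13 and 2.38 CPM, so both were high in the 2 serum cultures and low in the 3 kinds of 2i culture.

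Adhesion genes were lower in 14 of 27 (32.8% of all genes) and higher in 8 (33.6%), with a median of -0.28. Cdh1, E-cadherin, had 344 and 337 CPM in second 2i, against 149 and 148 CPM in serum, and the tight junction gene Cldn4 had 74.5 and 79.2 CPM in second 2i, against 15.3 and 17.1 CPM in serum. Vim, vimentin, had 168 and 177 CPM in second 2i, against 417 and 429 CPM in serum, and Cdh3, P-cadherin, was 2.29-fold lower. Of the SRF and YAP cytoskeletal targets 9 of 20 were lower and 8 higher (median -0.11): the YAP target Cyr61 was 2.84-fold and Amotl2 2.39-fold higher, and the tropomyosin gene Tpm2 was 7.29-fold lower.

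Marker genes of other lineages lay on both sides. Endothelial and blood genes summed to 220.0 and 223 CPM in second 2i and 321 and 345 CPM in serum, with Tal1 at 0 in second 2i; they were lower in 12 of 21 and higher in 7 (median -1.06), with Cdh5, VE-cadherin, at 4 counts against 241 and Vwf, von Willebrand factor, 3.19-fold higher. Primitive endoderm genes summed to 744 and 788 CPM in second 2i and 991 and 1037 CPM in serum and were lower in 11 of 19 and higher in 5 (median -0.97; 3 higher without second 2i library 2 or either serum library), with Sox7 and Hnf4a (5.24-fold lower) among the lower ones; 1 gene made up most of this sum in both groups. Trophectoderm genes and keratins summed to 417 and 436 CPM in second 2i and 336 and 355 CPM in serum and were higher in 9 of 20 and lower in 6 (median 0.26); Tfap2a, a transcription factor of trophoblast and neural crest, had 53.8 and 53.6 CPM in second 2i, against 2.53 and 2.50 CPM in serum, and Krt7, keratin 7, had 29 counts against 2 (ratio 15.6, interval 3.94 to 135). Neural genes summed to 445 and 447 CPM in second 2i and 253 and 281 CPM in serum, with Gad2 at 0 in serum, and were lower in 10 of 18 and higher in 5 (median -1.06). Within them the neurofilament genes Nefl, with 62.5 and 68.5 CPM in second 2i, against 1.29 and 1.51 CPM in serum, and Nefm, with 17.9 and 17.2 CPM in second 2i, against 0.335 and 0.156 CPM in serum, and the microtubule regulator Stmn2, with 216 and 197 CPM in second 2i, against 7.22 and 5.68 CPM in serum, were much higher, while Gap43, a growth cone protein, had 6 counts against 426 and Tubb3 was 4.49-fold lower. Stmn2 and Nefl made up most of the neural sum in second 2i. The sum of the remaining neural genes was lower in second 2i than in serum. Fibroblast and feeder genes, of which 13 of 20 passed the filter, summed to 195 and 198 CPM in second 2i and 467 and 479 CPM in serum, with no tested marker at 0 in either; 2 were higher and 4 lower (median 0.35), vimentin made up most of this sum, and Thy1 was 20.3-fold lower. The part of such cells in the differences above was not tested.

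**Figure D3:**
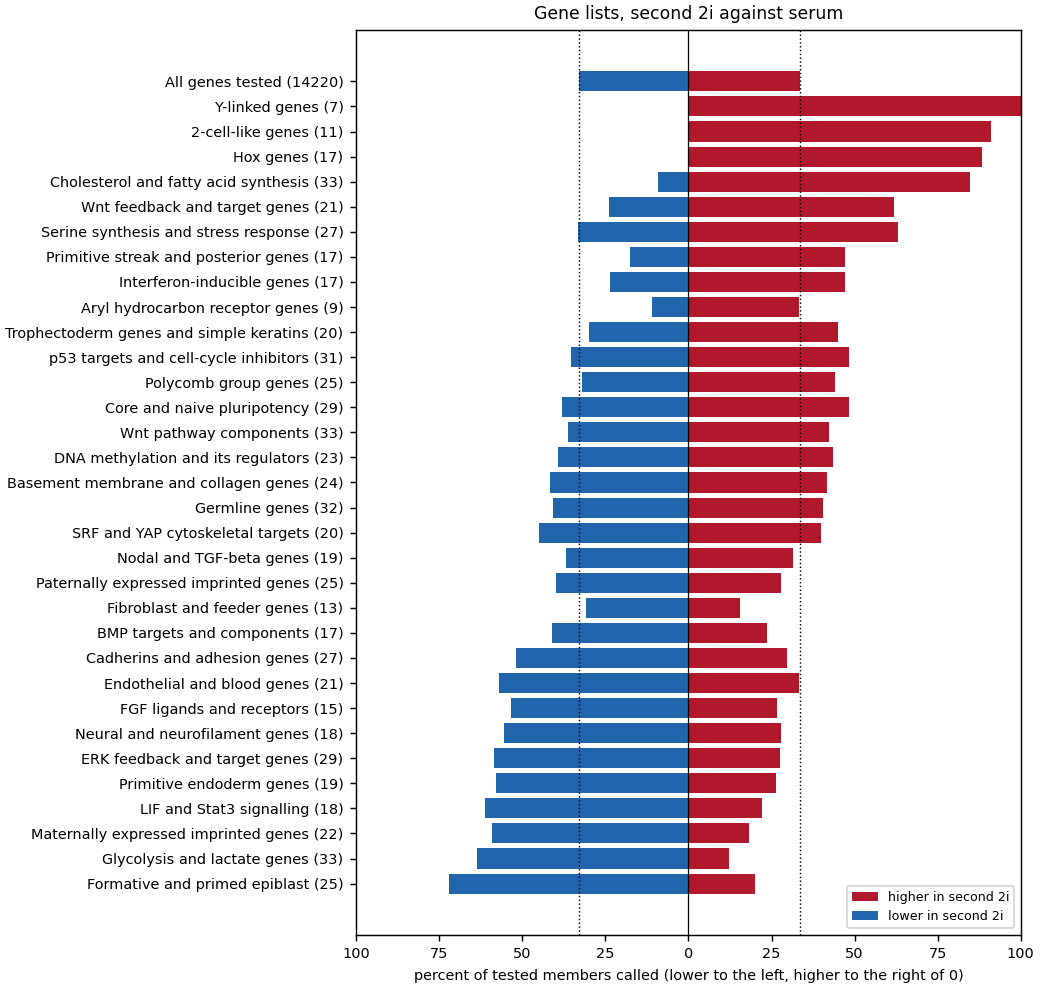
Percent of the tested members of each gene list (number tested in brackets) that were higher in second 2i (red, to the right) or lower (blue, to the left) at an adjusted p under 0.05; dotted lines mark the shares over all 14220 genes (33.6% higher, 32.8% lower). Y-linked, 2-cell-like, Hox and cholesterol genes lean to higher, and formative epiblast, glycolysis and maternally expressed imprinted genes to lower. Most tested 2-cell-like and Hox genes passed the filter on low counts through a group in which they were high. Their shares are therefore partly set by that filter.

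Metabolic genes showed 2 one-sided lists. Glycolysis and lactate genes were lower in 21 of 33 (32.8% of all genes) and higher in 4 (33.6%), with a median of -0.65. Pdk1, which diverts pyruvate from mitochondria, had 56.4 and 56.3 CPM in second 2i, against 472 and 478 CPM in serum (8.43-fold lower), the lactate exporter Slc16a3 had 13.2 and 11.8 CPM in second 2i, against 132 and 138 CPM in serum, and Egln3, an oxygen-sensing hydroxylase, had 2.02 and 2.64 CPM in second 2i, against 60.2 and 61.4 CPM in serum. Ldhb, a lactate dehydrogenase subunit, was 1.81-fold and Gpi1, a glycolytic isomerase, 1.46-fold higher. Cholesterol and fatty acid synthesis genes were higher in 28 of 33 (33.6% of all genes) and lower in 3 (32.8%), but by small factors (median 0.58). Scd1, a desaturase, had 680.1 and 658 CPM in second 2i, against 219 and 215 CPM in serum. Of the 33 tested, 6 were higher by at least 2-fold (10.6% of all genes).

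Serine synthesis and stress response genes were higher in 17 of 27 (33.6% of all genes) and lower in 9 (32.8%), with a median of 0.50. Nupr1, a stress-induced nuclear protein, had 124 and 125 CPM in second 2i, against 28.4 and 24.2 CPM in serum, and the transsulfuration enzymes Cbs and Cth were 3.75- and 3.30-fold higher. The first enzyme of serine synthesis, Phgdh, had 56.9 and 61.6 CPM in second 2i, against 94.3 and 99.6 CPM in serum, and the amino acid transporter Slc38a2 was 2.95-fold lower.

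Cell-cycle inhibitors and p53 targets lay on both sides. Cdkn1a, which encodes p21, had 123 and 138 CPM in second 2i, against 19.3 and 18.1 CPM in serum (6.96-fold higher), and Cdkn2a, the locus of p16 and p19Arf, had 14.9 and 16.6 CPM in second 2i, against 0.526 and 0.625 CPM in serum (27.2-fold higher). Pmaip1, the pro-apoptotic p53 target Noxa, had 6.16 and 6.17 CPM in second 2i, against 122 and 112 CPM in serum (19.002-fold lower), and Ccne1, cyclin E1, was 3.67-fold lower. Over the p53 and cell-cycle list 15 of 31 were higher and 11 lower (median 0.14). Among the inhibitors of the list Cdkn1c, given above, fell. Cdkn1a and Cdkn2a were lower than in first 2i, where Cdkn1a had 219 and 219.8 CPM and Cdkn2a 27.6 and 32.0 CPM (adjusted p = 1.53e-08 and 5.33e-07).

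Interferon-inducible genes were higher in 8 of 17 (33.6% of all genes) and lower in 4 (32.8%), with a median of 0.31. Aim2, a sensor of cytosolic DNA, had 108 and 103 CPM in second 2i, against 5.21 and 3.91 CPM in serum, and Ddx58, the RNA sensor RIG-I, had 66.8 and 65.0 CPM in second 2i, against 19.2 and 18.2 CPM in serum, whereas the antiviral enzyme gene Oas2 had 0.981 and 0.738 CPM in second 2i, against 23.8 and 25.1 CPM in serum. Y-linked genes were higher in all 7 tested (33.6% of all genes), with a median of 1.74. Among them Ddx3y, an RNA helicase, had 158 and 138 CPM in second 2i, against 91.9 and 86.1 CPM in serum, and Uba1y had 35.5 and 25.9 CPM in second 2i, against 9.66 and 8.60 CPM in serum; these genes have X-linked or autosomal relatives, and reads shared with them are uncertain.

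Set directly against first 2i, second 2i differed in 5357 genes (37.7%), 943 of them by at least 2-fold (6.63%), or in 3556 without second 2i library 2; against long 2i it differed in 8024 (56.4%), 2062 by at least 2-fold (14.5%). Set against serum, first 2i differed in 9952 genes (70.0%), long 2i in 9804 (68.9%) and serum return in 4407 (31.0%), the last falling to 2822 without serum library 2 and 2437 without serum return library 1; all 4 contrasts with serum share the 2 serum libraries, and the others share second 2i. Apart from Fos, Fosb and Egr1, the genes most above first 2i included Tlx2, a homeobox gene, with 19.3 and 25.7 CPM in second 2i, 1.36 and 2.63 CPM in first 2i, 1.83 and 2.85 CPM in long 2i and 0.0957 and 0.625 CPM in serum. Arhgef26, a guanine nucleotide exchange factor, had 12.5 and 12.2 CPM in second 2i, 1.87 and 1.56 CPM in first 2i and 1.67 and 1.82 CPM in serum. Gpr124, an adhesion receptor and Wnt7 co-receptor, had 6.37 and 6.06 CPM in second 2i, 1.08 and 0.438 CPM in first 2i, 5.17 and 5.96 CPM in serum return and 2.77 and 2.97 CPM in serum. In each the second 2i libraries lay above those of first 2i and, as the naming rule required, of serum, though for Gpr124 close to serum return. Aire, known for driving self-antigen expression in the thymus, had 1.20 and 2.69 CPM in second 2i, 0.0936 and 0.292 CPM in first 2i and 13.6 and 14.5 CPM in serum, and so lay between first 2i and serum.

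Several genes were lower in second 2i than in first 2i. Dppa3 (Stella), a maternal and germ cell factor that interferes with maintenance methylation, had 1.09 and 1.74 CPM in second 2i, 12.2 and 13.0 CPM in first 2i, 18.9 and 18.2 CPM in long 2i and 1.15 and 0.677 CPM in serum; second 2i was 8.83-fold below first 2i (adjusted p = 1.10e-09), and its difference from serum did not pass (adjusted p = 0.131). Cyp1a1, the classical target of the aryl hydrocarbon receptor, had 15 counts in second 2i and none in serum, at least 5.42-fold higher, against 7.16 and 6.23 CPM in first 2i and 51.5 and 48.4 CPM in long 2i. Ahrr, a repressor of that receptor and itself its target, had 0.490 and 0.633 CPM in second 2i, 4.91 and 3.65 CPM in first 2i, 16.0 and 14.2 CPM in long 2i and 0.143 and 0.365 CPM in serum (chosen after its values were seen). The receptor gene Ahr itself had 6.76 and 5.80 CPM in second 2i, against 1.53 and 1.72 CPM in serum, and Nqo1, another target, 88.1 and 85.2 CPM in second 2i, against 38.6 and 33.3 CPM in serum; both were lower in second 2i than in first 2i (log2 fold changes -1.10 and -0.99). Of the 9 tested aryl hydrocarbon receptor genes 3 were higher than serum and 1 lower (median 0.29), and 5 were lower than first 2i (19.6% of all genes) with 2 higher.

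Genes below their first 2i level also included Cacng5, a calcium channel subunit, with 9.70 and 10.5 CPM in second 2i, 36.8 and 35.8 CPM in first 2i and 2.34 and 3.02 CPM in serum, and Krt7, with 0.981 and 0.580 CPM in second 2i and 8.89 and 8.28 CPM in first 2i. Crtac1, a cartilage matrix protein, had 4.20 and 4.32 CPM in second 2i, 23.9 and 26.9 CPM in first 2i and 37.6 and 41.2 CPM in serum, and so lay lowest in second 2i of the 3. The ligand Fgf17 followed the same order, with 0.926 and 0.633 CPM in second 2i and 3.41 and 2.78 CPM in first 2i.

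**Figure D4:**
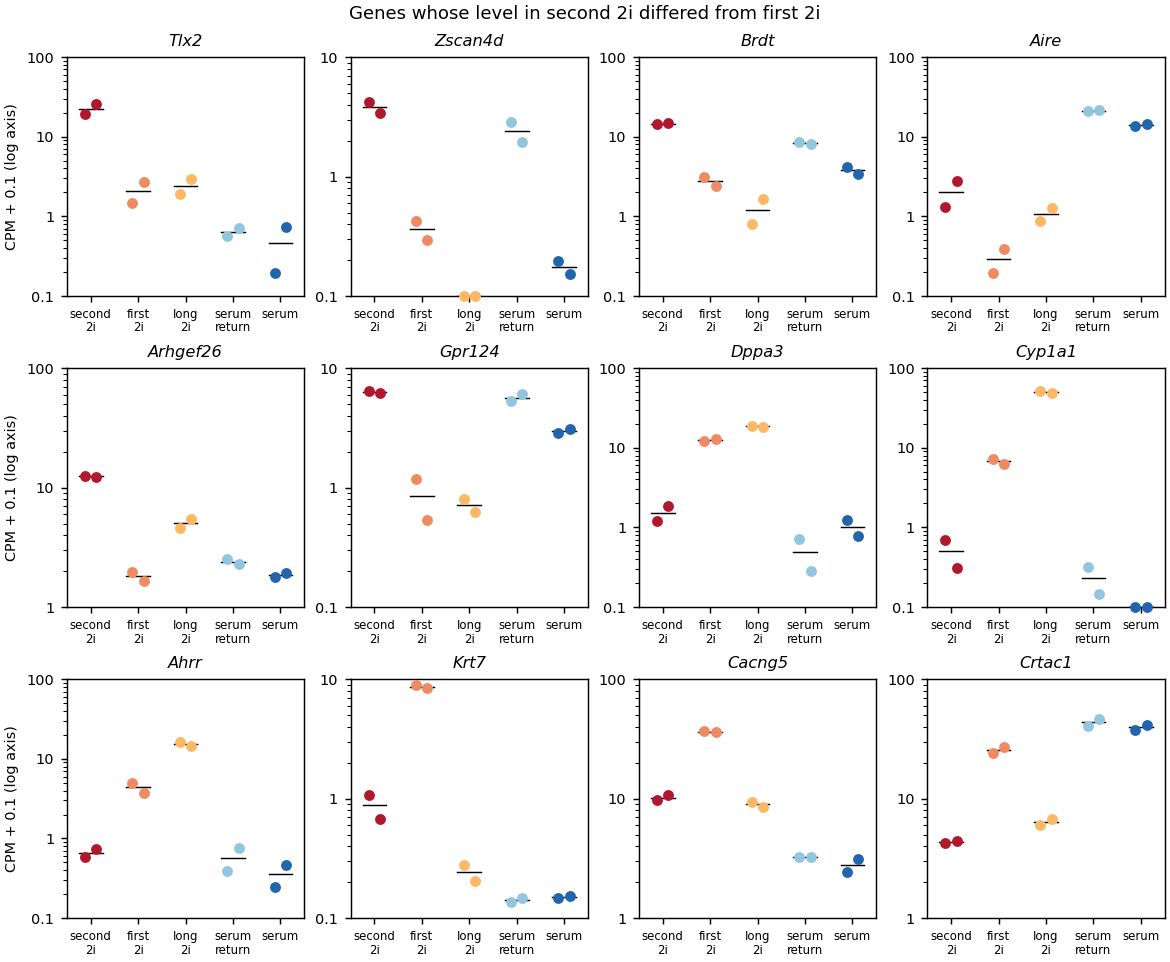
CPM + 0.1 on a log axis in both libraries (points) of second 2i, first 2i, long 2i, serum return and serum, with group means as lines, for 12 genes that passed between second and first 2i. Tlx2, Zscan4d, Brdt, Aire, Arhgef26 and Gpr124 were higher in second than in first 2i, and Dppa3, Cyp1a1, Ahrr, Krt7, Cacng5 and Crtac1 were lower (Dppa3 1.09 and 1.74 CPM in second 2i, 12.2 and 13.0 CPM in first 2i and 1.15 and 0.677 CPM in serum).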

How the data were processed

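Each of the 10 files holds 1 library's whole-number read counts for 24015 genes, as the authors deposited them. Per the submitters' processing notes HTSeq 0.5.4p5, TopHat2 2.0.4, CASAVA 1.8.2 and DESeq2 were used with the mouse build mm9; the strand setting is not given in the sources used here. The last 5 rows of each file, HTSeq's summary categories, were removed; reads that did not align uniquely were 33.4 to 36.5% of all reads listed, so genes with near-identical copies are undercounted.

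Counts were fitted with edgeR 4.0.16 (R 4.3.3), all 10 libraries in 5 groups of 2, with TMM scaling and the quasi-likelihood test. Genes passing filterByExpr (minimum count 10, total 15) numbered 14220. Every adjusted p in the text is Benjamini-Hochberg adjusted over these genes, with 5 residual degrees of freedom and a threshold of 0.05. CPM values are TMM-scaled, and a standard error is the absolute log2 fold change divided by the square root of F. The common spread within groups, edgeR's biological coefficient of variation, was 0.0491. The labels do not describe the 2 libraries of a group as separate cultures, so this spread may be technical. The code was tested on simulated data. Alternatives were RLE factors, no filter, the DESeq2 1.42.0 Wald test, 2 groups only, a replicate block, glmTreat and each library left out.

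Genes were named by a rule: per comparison and gene list, the largest fold changes, plus a fixed set, giving 234 genes. The fold changes were those of genes that passed, with a mean of 5 CPM or more in whichever group was higher and 1 direction in all library pairs. Model or clone names and ribosomal protein and histone genes were left out. Any gene outside the rule is marked as picked with its values in view, except where it is the exception to a count. The groups compared, the 32 gene lists and the fixed set were chosen with earlier results of these data known. Intervals and floors of 3 counts cover counting error only. Motifs were searched in RefSeq promoter windows of GRCm38.p6, which were not used to place any read.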

Additional observations from a re-analysis of the deposited data

Results flagged for a closer look

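Of the genes past 2-fold and the threshold in both contrasts with serum, with at least 5 CPM and leaving out model-named, ribosomal protein and histone genes, 3 moved in opposite directions in second 2i and in first 2i, and the direct difference between these groups passed for each (edgeR, Benjamini-Hochberg adjusted). Egr1 had 116 and 109.8 CPM in second 2i, 0.421 and 0.438 CPM in first 2i and 26.6 and 28.5 CPM in serum, and second 2i exceeded first 2i by 8.02 on the log2 scale (adjusted p = 7.81e-20). Fos had 132 and 131 CPM in second 2i, 1.82 and 1.66 CPM in first 2i and 4.496 and 5.58 CPM in serum, a log2 difference of 6.23 between second and first 2i (adjusted p = 3.12e-18). Gpr124 had 6.37 and 6.06 CPM in second 2i, 1.08 and 0.438 CPM in first 2i, 5.17 and 5.96 CPM in serum return and 2.77 and 2.97 CPM in serum, a log2 difference of 3.02 (adjusted p = 2.79e-08). Both contrasts share the serum libraries, and no cause was tested. Groups of 2 are too small for a search for single outlying libraries.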

How the results depend on the processing

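Second 2i and serum differed in 9446 genes, 8370 to 8595 when 1 library was left out and 8440 to 10250 under the other alternatives. The count past 2-fold was 3282, and 2184 when the 2-fold threshold itself was tested (glmTreat), a stricter null by construction. Leaving out 1 library gave 3556 to 4218 genes for second against first 2i (5357 with all libraries) and 2437 to 3333 for serum return against serum (4407); the cause was not tested. Of the 234 named genes none reversed under any of these alternatives, and 10 crossed the threshold under at least 1. Outside the fixed set, the naming rule had required a passing difference with 1 direction in all library pairs. The absence of reversals was therefore largely set by the rule and is no test of robustness. Pou5f1, Zfp42, Jak2 and Lef1 are described above with their values. With the title series as a replicate block, 10250 genes differed from serum, 5166 higher and 5084 lower, and 6933 differed from first 2i. Libraries that share a title series deviated together weakly but always in the same direction (correlations 0.0994 to 0.168 over 10 pairs of groups, 0.0994 for second 2i and serum). The main fit did not pair the samples by title series, and the labels do not say what the series stand for. With 2 libraries a group, small differences and genes of a few counts are the least certain.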
